A study of Mus musculus with 6 samples.

Results

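The enzymes that carry glucose through glycolysis and pyruvate through the citrate cycle were examined in the hearts of GRK2+/- mice and their wild-type littermates. They were chosen by function as 39 named genes, from the glucose transporters to malate dehydrogenase and pyruvate carboxylase. Of these, 35 had a probe set (the group of probes on the array that reads 1 transcript) annotated to exactly 1 gene symbol, and where a gene had several the brightest over the 6 arrays was used. They were part of 18193 genes measured in this way. Gapdh was read only by the array maker's control probe sets and is described apart, and Gpi1, Eno1 and Pfkfb1 were not analysed here.

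The GRK2+/- mice carried 1 targeted allele of Adrbk1 (Grk2), the kinase that phosphorylates active receptors of the heart such as the beta-adrenergic ones and so shuts off their signalling. The strain is given as B6.129-Adrbk1tm1Mca/J, backcrossed for more than 20 generations onto C57BL/6J, and the allele is carried in the germ line, so that every cell type of the heart holds it. Both groups were 9 months old, and no treatment is named, with 3 hearts in each, 1 Affymetrix array a heart and total RNA from the excised upper portion of hearts stopped with potassium chloride. No probe set of the annotation used named Grk2, so its level could not serve as a check of the labels. Values are log2 probe set values as deposited, and differences are GRK2+/- minus wild type on that scale, with limma's standard error (SE) and n = 3 hearts a group. The labels number the hearts 1 to 3 within each genotype and name no pooling.

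Glycolysis splits glucose into pyruvate in the cytosol, yielding a little ATP and NADH, and lactate dehydrogenase exchanges pyruvate with lactate. The pyruvate dehydrogenase complex in the mitochondrion turns pyruvate into acetyl-CoA, irreversibly, and the citrate cycle oxidises acetyl-CoA and hands its electrons to the respiratory chain. The adult heart draws most of its ATP from fatty acids, with glucose and lactate as further fuels. Pyruvate dehydrogenase kinases switch the complex off when fatty acids are plentiful.

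The array medians lay between 6.26 and 6.31. The ventricular light chain Myl2 read 15.07 in GRK2+/- and 15.09 in wild-type hearts (group means), and the cardiomyocyte myosin Myh6 read 14.88 and 14.83. Of 8 atrial markers, Sln, Myl7, Bmp10 and Dkk3 read below the array medians in wild-type hearts (5.50 to 6.23), and Myl4 read 7.10. Nppa, Stard10 and Tbx5 read 11.17, 9.43 and 9.02, so the share of atrium in the excised tissue was not settled by this list. In tissue RNA, fewer cells of a type and less RNA per cell cannot be told apart.

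The messengers of these enzymes were nearly level between the genotypes. With limma, 0 of the 35 genes passed an adjusted p of 0.05 (Benjamini-Hochberg over all genes, smallest adjusted p of a member 0.414), as did 0% of all genes. At an unadjusted p under 0.05 there were also 0 members, where 14% of all genes were called. The median difference of the members was -0.011, beside -0.019 for all genes, and 17 members lay above 0 and 18 below. Their typical size of difference was 0.055, against 0.084 for all genes. The members were thus spread narrowly around 0 on both sides, and the differences ran from -0.14 for Pfkp to 0.31 for Pfkfb3, the next highest after it being 0.093.

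The intervals were narrow for this set. The 95% interval of the difference lay within a 1.2-fold change in either direction for 31 of 35 members (88.6%), against 46.3% of all genes and 48.5% of genes at or above the median level. The 4 exceptions were Pfkp, Pfkfb2, Pfkfb3 and Tpi1, and the Pfkfb3 interval alone, from -0.059 to 0.69, also reached beyond a 1.5-fold change. With all 82 probe sets of these genes in place of the brightest, the share was lower, 57 of 82 (69.5%), against 46.0% of all probe sets. The 35 members were also brighter, with a median level of 12.96, against 8.80 for genes at or above the median level. The median SD between hearts was 0.059 in GRK2+/- and 0.057 in wild type, beside 0.088 and 0.090 over all genes. Of the members, 34 had a mean above the median of the gene table (7.24), Pfkfb3 being the exception, and 25 had a mean above 12 on arrays that reached 15.11 at the most, so part of the set read near the top of the scale.

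For 7 of the 35 members (20%) the 3 hearts of one genotype all lay on one side of the other's, a share near the 19.1% of all genes that did so. The GRK2+/- hearts were below for Tpi1, Pgam2, Pdhb, Idh2 and Dld (5 members, background 11.6%) and above for Dlst and Fh1 (2 members, background 7.44%). With arrays centred on their medians the count was 2, Fh1 and Mdh2. With quantile normalisation it was 6, namely Pfkp and 5 of these 7, without Tpi1 and Pgam2. The count thus depended on which scaling was used.

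**Figure D1:**
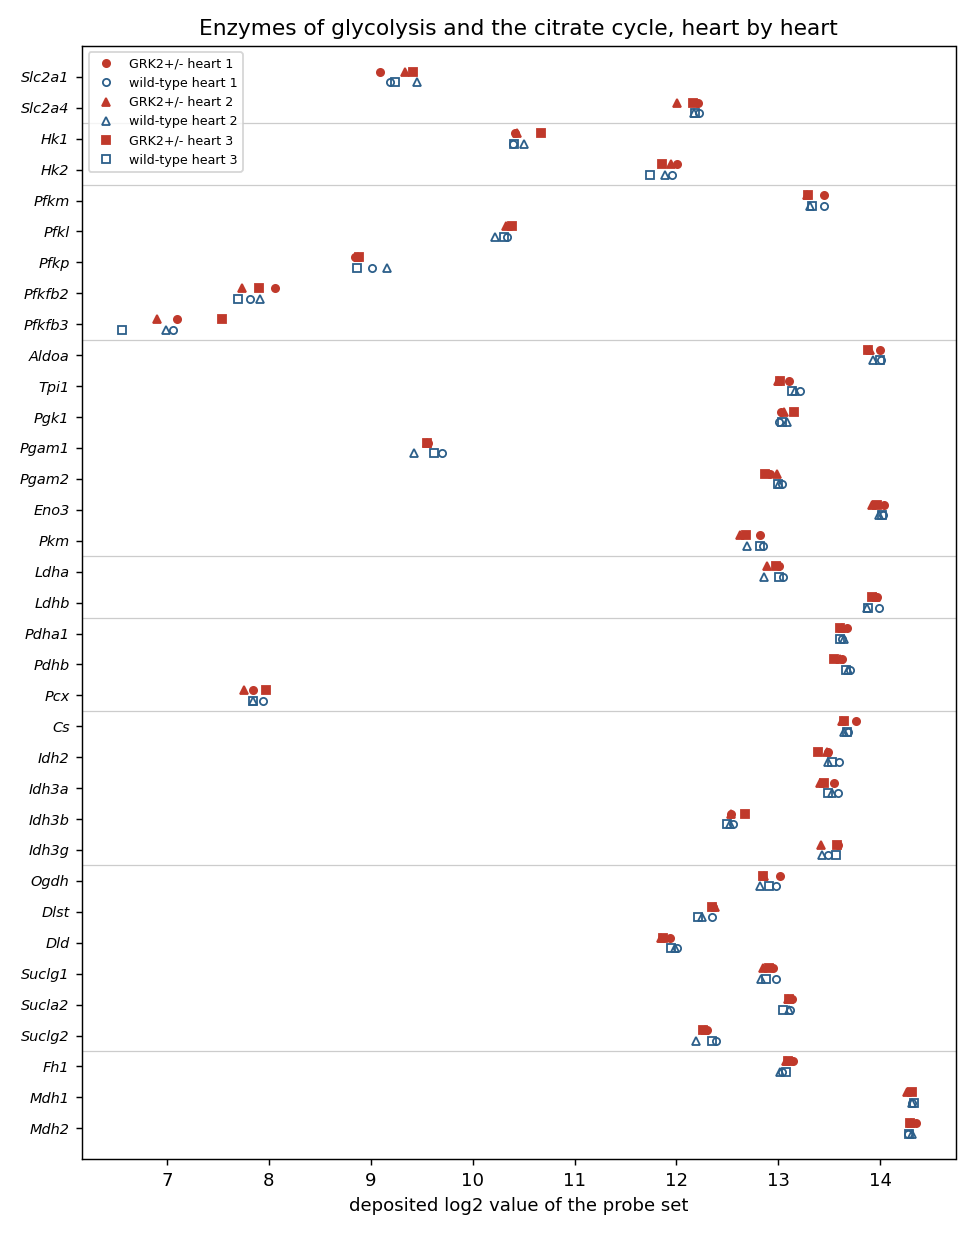
Deposited log2 values of the 35 enzymes in each heart, grouped by step of the pathway, with 1 point a heart and 3 hearts a genotype. The points of the 2 genotypes lie on top of each other for most enzymes, and Pfkfb3, near 7, has the widest spread.

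**Figure D2:**
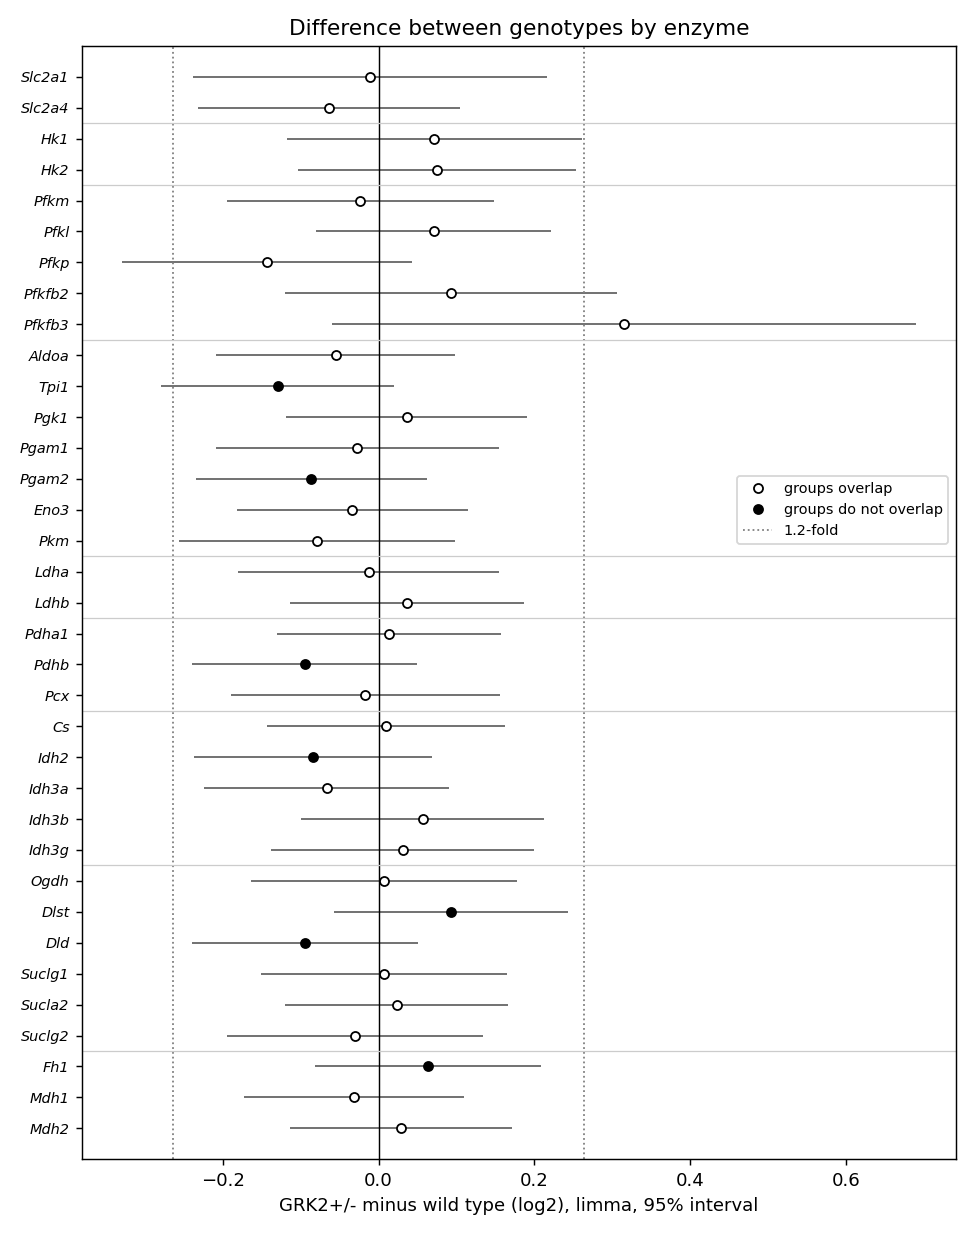
Difference between genotypes (GRK2+/- minus wild type, log2) for each enzyme with limma's 95% interval. Of the 35 intervals, 35 include 0, and the interval of Pfkfb3 is the widest.

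Promoter sequences of 3 members are shown because they include the 2 glycolytic genes with the smallest p and the citrate cycle entry gene with the smallest p. They come from RefSeq (GRCm38.p6) and each hold 300 bases around an annotated start of the gene, 5′ to 3′ on its own strand. Capitals mark motifs found by letter search on both strands: ACGTG, the core bound by hypoxia-inducible factor, which also lies inside the E-box CACGTG, and TNAAGGTCA, an element of oestrogen-related receptors. Tpi1 is shown at chr6:124814109-124814408, minus strand, one of the Pfkfb3 starts at chr2:11502041-11502340, minus strand, and Pdhb at chr14:8172943-8173242, minus strand.
Tpi1: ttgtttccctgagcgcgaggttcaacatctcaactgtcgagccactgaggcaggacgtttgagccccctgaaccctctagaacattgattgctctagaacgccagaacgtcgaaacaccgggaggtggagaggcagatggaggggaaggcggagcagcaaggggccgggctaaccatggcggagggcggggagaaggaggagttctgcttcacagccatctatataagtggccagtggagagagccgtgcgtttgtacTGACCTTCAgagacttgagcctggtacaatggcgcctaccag
Pfkfb3: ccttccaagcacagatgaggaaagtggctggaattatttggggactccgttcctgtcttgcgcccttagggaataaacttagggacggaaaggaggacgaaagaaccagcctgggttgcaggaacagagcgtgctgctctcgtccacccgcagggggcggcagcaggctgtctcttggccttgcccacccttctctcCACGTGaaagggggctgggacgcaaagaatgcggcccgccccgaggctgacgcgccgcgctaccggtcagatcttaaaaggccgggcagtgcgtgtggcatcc
Pdhb: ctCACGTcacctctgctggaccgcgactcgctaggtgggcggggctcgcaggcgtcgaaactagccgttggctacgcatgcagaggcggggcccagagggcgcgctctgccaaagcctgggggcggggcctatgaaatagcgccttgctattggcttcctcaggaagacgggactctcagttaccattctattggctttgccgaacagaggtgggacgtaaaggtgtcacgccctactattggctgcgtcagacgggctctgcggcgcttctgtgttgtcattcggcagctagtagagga

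In the Tpi1 window the capitals are the reverse strand of the receptor element, in the Pfkfb3 window they are an E-box that holds the core on both strands, and in the Pdhb window the core on the reverse strand. A window was at hand for 33 of the 35 members. The core ACGTG was in at least 1 window of 16 of the 33 (48.5%), against 21.8% of 27025 genes. A gene with several windows had more chances to hold it. Counted by window it was in 25 of 50 (50%), against 19.6% of 32851. The median difference was -0.012 for the 16 members with it (7 above 0) and 0.0091 for the 17 without it (10 above 0). Both medians lie close to 0. The receptor element was in 1 of 33 members (3.03%), Tpi1, against 1.43% of all genes.

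At their brightest probe sets the glucose transporters differed by less than 0.1 between genotypes. Slc2a4 (GLUT4, the insulin-responsive transporter of muscle) read 12.21, 12.00 and 12.16 in GRK2+/- hearts 1 to 3 and 12.22, 12.17 and 12.18 in the wild-type hearts. Slc2a1 (GLUT1, the basal transporter) read 9.09, 9.34 and 9.41 against 9.19, 9.45 and 9.24. GRK2+/- heart 2 was the lowest of the 6 for Slc2a4, the genotypes overlapped for both transporters, and the differences were -0.064 ± 0.075 and -0.011 ± 0.10. The other Slc2a4 probe set gave -0.15 ± 0.10 with overlap. Of the other 2 Slc2a1 probe sets one gave 0.027 and the dimmer one -0.15 ± 0.07, below without overlap (limma unadjusted p = 0.0750).

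Hexokinases trap glucose in the cell by phosphorylating it. Hk2, the insulin-regulated form of muscle, read 12.00, 11.95 and 11.86 in GRK2+/- hearts against 11.96, 11.88 and 11.74. Hk1, the widely expressed form, read 10.42, 10.43 and 10.67 against 10.40, 10.50 and 10.40. Both overlapped, with differences of 0.075 ± 0.080 and 0.072 ± 0.085, and the highest Hk1 value was that of GRK2+/- heart 3 alone. The dimmer Hk1 probe set gave 0.11 ± 0.07, above without overlap.

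Phosphofructokinase commits glucose to glycolysis, and its activator fructose 2,6-bisphosphate is made and broken down by the PFKFB enzymes. This step held the widest range among members. Pfkfb3, a form with strong kinase activity, read 7.10, 6.90 and 7.54 in GRK2+/- hearts and 7.05, 6.99 and 6.56 in wild-type hearts. The difference of 0.31 ± 0.17 (1.24-fold; limma unadjusted p = 0.090, adjusted p = 0.425) came from the highest value in GRK2+/- heart 3 and the lowest in wild-type heart 3, and the other 4 hearts lay between 6.90 and 7.10. Without GRK2+/- heart 3 it was 0.14, without wild-type heart 3 it was 0.16, without GRK2+/- heart 2 it was 0.45 with an unadjusted p of 0.022 by limma, and the gene's other probe set gave 0.042.

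Pfkp, the platelet form of phosphofructokinase, read 8.85, 8.88 and 8.88 in GRK2+/- hearts against 9.01, 9.16 and 8.86. Wild-type heart 3 lay inside the GRK2+/- range, and the difference was -0.14 ± 0.08 (limma unadjusted p = 0.116), -0.22 without wild-type heart 3 and -0.069 without wild-type heart 2. The muscle form Pfkm differed by -0.023 ± 0.077, the liver form Pfkl by 0.071 ± 0.068 and the cardiac PFKFB form Pfkfb2 by 0.093 ± 0.095, with overlap in each. The dimmer Pfkl probe sets lay on the other side of 0, at -0.076 and -0.13, also with overlap.

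From aldolase to pyruvate kinase, 6 of the 7 measured enzymes lay below 0, where 10270 of all 18193 genes did. The step median was -0.055, and 0 of the 7 had an unadjusted p under 0.05 by limma (background 14%). Tpi1, which interconverts the triose phosphates, read 13.10, 13.00 and 13.02 in GRK2+/- hearts and 13.21, 13.16 and 13.14 in wild-type hearts. The lowest wild-type heart lay 0.035 above the highest GRK2+/- heart, and the difference of -0.13 ± 0.07 had the smallest p of all members (limma unadjusted p = 0.083, adjusted p = 0.414). Each of the 3 Tpi1 probe sets was lower without overlap. When limma's prior was allowed to follow the mean level, the unadjusted p of Tpi1 was 0.0127 and that of Pdhb 0.0294, and neither passed after adjustment.

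Pgam2, the muscle phosphoglycerate mutase, read 12.92, 12.99 and 12.87 in GRK2+/- hearts against 13.03, 13.01 and 13.00. The nearest hearts of the genotypes were 0.010 apart, and the difference was -0.086 ± 0.066. At their brightest probe sets the remaining enzymes overlapped. Aldolase Aldoa differed by -0.055 ± 0.069, muscle enolase Eno3 by -0.034 ± 0.066 and pyruvate kinase Pkm by -0.079 ± 0.079. The brain form of the mutase, Pgam1, differed by -0.027 ± 0.081. Phosphoglycerate kinase Pgk1, the only one above 0, differed by 0.036 ± 0.069, but its dimmer probe sets lay below 0. These gave -0.085 ± 0.067, below without overlap, and -0.025 with overlap. The probe sets used for Aldoa, Tpi1, Pgk1 and Ldhb carry the maker's suffix for probes that may also bind other transcripts, and those for Idh3b and Suclg2 the suffix for probes shared by several transcripts, so the values of these 6 genes are less certain.

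Gapdh, which makes the NADH of glycolysis, was read by control probe sets at the start, middle and end of its messenger. The 3′ control read 14.41, 14.32 and 14.33 in GRK2+/- hearts and 14.42, 14.45 and 14.44 in wild-type hearts. The middle control read 14.38, 14.29 and 14.30 against 14.40, 14.44 and 14.45, and the 5′ control 14.40, 14.28 and 14.30 against 14.37, 14.46 and 14.47. The GRK2+/- hearts were lower without overlap at the 3′ and middle sets, by 0.082 and 0.10, each with an exact permutation p of 0.1, the smallest that 3 against 3 can give. At the 5′ set GRK2+/- heart 1 lay within the wild-type range, with a difference of -0.11 (exact permutation p = 0.2). These sets read near the top of the scale, and the 3′ minus 5′ value of Gapdh, a sign of RNA integrity, was 0.030 ± 0.016 against 0.0051 ± 0.039 (SD, n = 3; exact permutation p = 0.4), while that of beta-actin was higher in all 3 GRK2+/- hearts, by 0.20. Its part in the result was not tested.

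At their brightest probe sets both subunits of lactate dehydrogenase differed by less than 0.04 and overlapped. Ldhb, the heart subunit, read 13.97, 13.96 and 13.92 in GRK2+/- hearts against 13.98, 13.87 and 13.88. Ldha, the muscle subunit, read 13.00, 12.89 and 12.98 against 13.04, 12.86 and 13.00. Heart 2 was the lowest of its genotype for Ldha in both groups, and the differences were 0.036 ± 0.067 for Ldhb and -0.013 ± 0.075 for Ldha. Of the other 3 Ldhb probe sets, one of nearly the same brightness gave 0.083 ± 0.066, above without overlap, and the rest overlapped at -0.0047 and 0.021.

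At the entry of pyruvate into the cycle, Pdhb, the beta subunit of pyruvate dehydrogenase, read 13.63, 13.60 and 13.55 in GRK2+/- hearts and 13.71, 13.69 and 13.67 in wild-type hearts. The genotypes did not overlap, and the difference was -0.095 ± 0.065 (limma unadjusted p = 0.174). Both of its probe sets were lower without overlap. The alpha subunit Pdha1 differed by 0.014 ± 0.064 at its brighter probe set. Its other probe set gave -0.20 ± 0.07, below without overlap (limma unadjusted p = 0.0207). Pyruvate carboxylase Pcx, which makes oxaloacetate from pyruvate to refill the cycle, read 7.85, 7.75 and 7.97 against 7.94, 7.84 and 7.84, and the genotypes overlapped, with a difference of -0.017 ± 0.077. The 4 control probe sets for Pcx overlapped too, with differences from -0.11 to 0.0098. In the gene order of chromosome 19, Pcx lies 7 genes from Grk2 itself.

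Citrate synthase Cs, the first enzyme of the cycle, differed by 0.0091 ± 0.068. Its dimmer probe sets gave 0.016, above without overlap, and -0.085 with overlap. Idh2, the NADP-dependent mitochondrial isocitrate dehydrogenase, read 13.49, 13.48 and 13.39 in GRK2+/- hearts against 13.60, 13.49 and 13.52, and the genotypes did not overlap, though their nearest hearts were only 0.0001 apart. Its difference was -0.084 ± 0.068. Idh3a, the catalytic subunit of the NAD-dependent enzyme, read 13.55, 13.41 and 13.45 against 13.59, 13.53 and 13.49 and overlapped, with a difference of -0.067 ± 0.070. The regulatory subunits Idh3b and Idh3g lay at 0.057 ± 0.070 and 0.031 ± 0.075.

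The subunits of the oxoglutarate dehydrogenase complex lay on both sides of 0. Its core subunit Dlst read 12.36, 12.38 and 12.35 in GRK2+/- hearts and 12.35, 12.25 and 12.22 in wild-type hearts. All GRK2+/- values were the higher ones, the nearest wild-type heart lying only 0.0016 below them, and the difference was 0.093 ± 0.067. The dimmer Dlst probe sets lay on both sides of 0 with overlap, at -0.17, 0.13 and -0.055. Dld, the dehydrogenase subunit shared with pyruvate dehydrogenase, read 11.93, 11.85 and 11.87 against 12.00, 11.98 and 11.95. It lay below without overlap, at -0.094 ± 0.065, while the brighter Ogdh probe set differed by 0.0071 ± 0.076. The succinyl-CoA ligase subunits Suclg1, Sucla2 and Suclg2 differed by 0.0069 ± 0.071, 0.023 ± 0.064 and -0.030 ± 0.073.

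Fumarase, Fh1, read 13.15, 13.08 and 13.10 in GRK2+/- hearts and 13.04, 13.02 and 13.08 in wild-type hearts. The GRK2+/- values were the higher ones, the nearest pair of hearts lying 0.0015 apart, and the difference was 0.064 ± 0.065. Cytosolic malate dehydrogenase Mdh1, part of the shuttle that brings NADH electrons into the mitochondrion, read 14.29, 14.27 and 14.31 against 14.31, 14.32 and 14.33. It overlapped, with a difference of -0.031 ± 0.063, and the mitochondrial form Mdh2 differed by 0.029 ± 0.064. The direction turned with the probe set for both genes. The dimmer Mdh1 probe sets gave 0.017, 0.065, 0.11 and -0.0057 and the dimmer Mdh2 probe set -0.022, all with overlap.

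The 35 genes had 82 probe sets in all. With limma over all 45037 probe sets, 0 of the 82 passed after adjustment (0% of all) and 4 (4.88%) had an unadjusted p under 0.05, against 12.8% of all. Of these, 1 was higher (background 5.44%) and 3 were lower (background 7.4%). A dimmer Pfkp probe set read 5.89, 5.97 and 6.03 in GRK2+/- hearts and 6.38, 6.20 and 6.41 in wild-type hearts, a difference of -0.37 ± 0.08 (limma unadjusted p = 0.00103, adjusted p = 0.177). Its mean of 6.15 lies close to the array medians, the genotypes did not overlap, and the other 2 Pfkp probe sets also lay below 0, at -0.14 and -0.12, with overlap.

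A second Ogdh probe set read 8.94, 8.88 and 9.07 against 8.77, 8.66 and 8.66, a difference of 0.27 ± 0.08 without overlap. A second Pdha1 probe set read 12.31, 12.14 and 12.15 against 12.39, 12.37 and 12.45, a difference of -0.20 ± 0.07 without overlap. The brighter probe set of each gene gave 0.0071 and 0.014. A second Tpi1 probe set read 12.95, 12.81 and 12.87 against 13.10, 13.01 and 13.04, a difference of -0.17 ± 0.07. Without overlap were 20 of the 82 (24.4%; background 17.9%), 7 above (background 6.76%) and 13 below (background 11.2%).

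**Figure D3:**
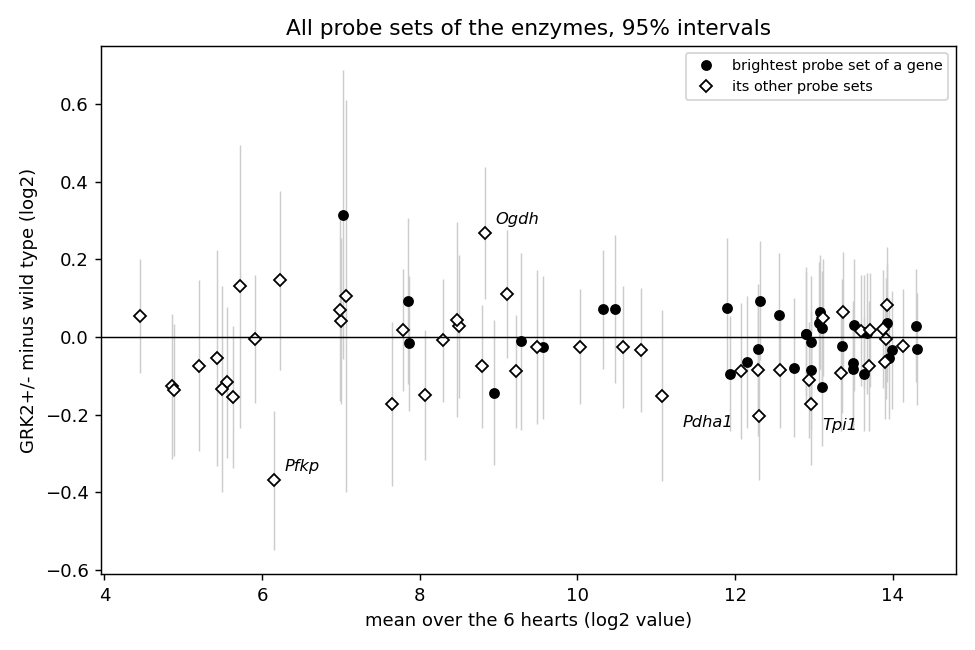
Difference between genotypes (log2) with its 95% interval against the mean level over 6 hearts for the 82 probe sets of the enzymes. Most bright probe sets sit close to 0, and the dimmer Pfkp probe set at -0.37, Pfkfb3 at 0.31 and the second Ogdh probe set at 0.27 stand farthest from it.

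Isoforms of a step were compared within each heart, which removes any scaling of the whole array; the level of such a difference also holds the unequal brightness of the probe sets, so only its change between genotypes is read. Of 11 pairs listed, 9 were measured. The smallest exact permutation p was 0.2, where 0.1 was the smallest possible, and all adjusted values were 0.771 or above. Ldhb minus Ldha was 0.99 ± 0.07 (SD, n = 3) in GRK2+/- against 0.94 ± 0.07 in wild-type hearts. Hk2 minus Hk1 was 1.43 ± 0.21 and 1.43 ± 0.12, and Slc2a4 minus Slc2a1 was 2.84 ± 0.24 and 2.89 ± 0.16. None of these moved by more than its spread.

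Pfkm minus Pfkl, at 2.98 ± 0.09 against 3.07 ± 0.04, and Mdh1 minus Mdh2, at -0.027 ± 0.045 against 0.032 ± 0.025, were the pairs with an exact permutation p of 0.2. Pfkfb2 minus Pfkfb3 was 0.72 ± 0.31 against 0.94 ± 0.19, the widest spread of the 9. Pfkm minus Pfkp was 4.47 ± 0.11 against 4.35 ± 0.17, Pgam2 minus Pgam1 3.37 ± 0.06 against 3.43 ± 0.13, and Sucla2 minus Suclg2 0.83 ± 0.02 against 0.78 ± 0.11. All 9 pairs overlapped between genotypes.

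**Figure D4:**
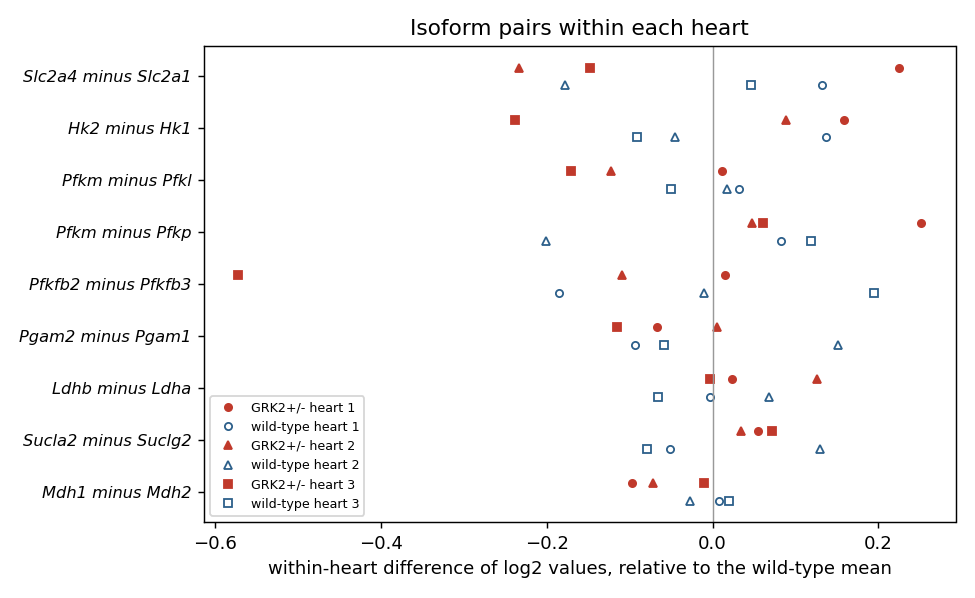
Within-heart difference of the log2 values of each isoform pair, relative to the wild-type mean of that pair, with 1 point a heart. The genotypes overlap in all 9 pairs, and Pfkfb2 minus Pfkfb3 spreads the most.

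Beyond the enzymes of the backbone, 69 of 76 listed genes of the surrounding pathway were measured, in lists of regulators of pyruvate dehydrogenase, further citrate cycle and glycolysis genes, side branches and transcription factors. With limma 0 passed after adjustment and 8 (11.6%) had an unadjusted p under 0.05, 6 higher (background 6.3%) and 2 lower (background 7.7%). The total share is near the 14% of all genes. The list of pyruvate dehydrogenase control held 3 of the 6 higher ones among its 10 measured genes. Of the pathway genes named below, Pdpr, Dlat, Hk3, Adpgk and Tkt were read by probe sets with the suffix for probes that may also bind other transcripts. Pck1 was read by one with the suffix for shared probes, so these values too are less certain.

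Pdk4, the kinase that phosphorylates and silences pyruvate dehydrogenase when fatty acids are the fuel, read 12.87, 13.20 and 12.92 in GRK2+/- hearts and 12.31, 11.54 and 12.68 in wild-type hearts. All GRK2+/- values were higher, while wild-type heart 2 stood well below the other two, and the difference was 0.82 ± 0.23, or 1.77-fold (limma unadjusted p = 0.00572, adjusted p = 0.205). Without wild-type heart 2 it was 0.50, and without wild-type heart 3 it was 1.07. Pdk1, a further kinase of the complex, read 11.11, 11.31 and 11.10 against 11.05, 10.93 and 10.98, a difference of 0.18 ± 0.08 without overlap. Pdpr, the regulatory subunit of the phosphatase that reactivates the complex, read 10.58, 10.91 and 10.41 against 10.43, 10.22 and 10.11 and overlapped, a difference of 0.38 ± 0.13. With the mean of each gene's probe sets Pdk1 was 0.076 and Pdpr 0.15, and without GRK2+/- heart 2 they were 0.11 and 0.24.

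Of the 10 measured genes of this list, 4 lay below without overlap (background 11.6%), 2 above (background 7.44%) and 4 overlapped. Those below were the acetyl-transferring core Dlat (-0.077 ± 0.064), its partner Pdhx, which anchors Dld (-0.090 ± 0.067), the mitochondrial pyruvate carrier subunit Mpc1 (-0.082 ± 0.065) and the kinase Pdk3 (-0.16 ± 0.07), which is dim at 6.53 in wild type. Dlat, Pdhx and Mpc1 were chosen for mention after their values were seen. Each of these 3 is under 0.1 in size, and they overlapped, as did the members Pdhb and Dld, once arrays were centred on their medians.

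**Figure D5:**
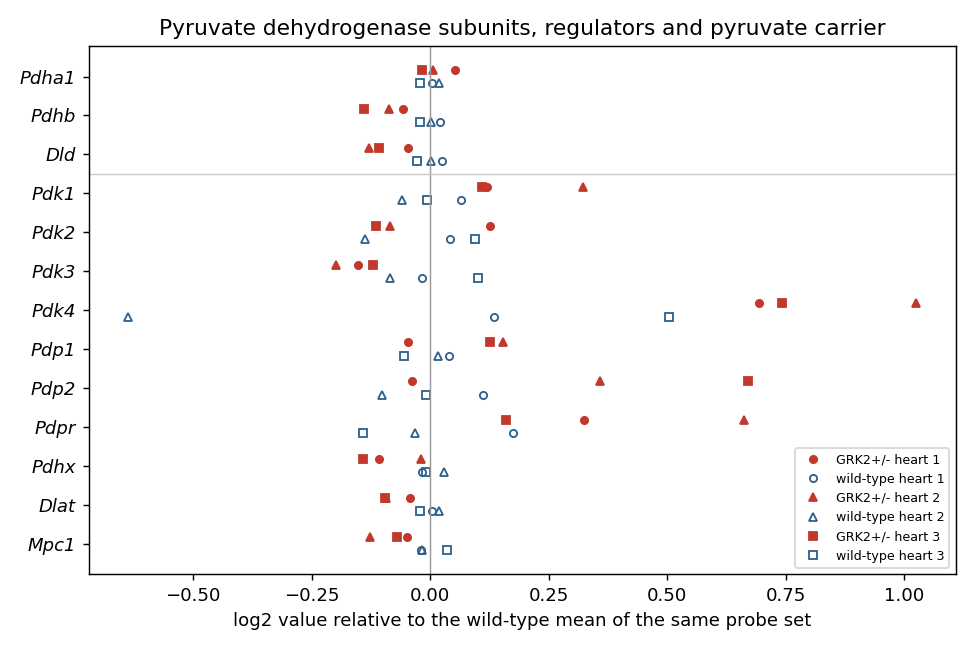
Log2 values of pyruvate dehydrogenase subunits, their regulators and the pyruvate carrier in each heart, relative to the wild-type mean of the same probe set. Only the brightest probe set of each gene is shown. Pdk4 has the widest spread, with all 3 GRK2+/- hearts to the right of the wild-type hearts and wild-type heart 2 far to the left, while the points of the subunits lie close to 0.

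Among further citrate cycle genes 1 of 13 (7.69%) had an unadjusted p under 0.05 by limma, against 14% of all genes. Got1, the cytosolic aspartate aminotransferase of the malate-aspartate shuttle, read 13.56, 13.31 and 13.39 in GRK2+/- hearts against 13.72, 13.60 and 13.63. The genotypes did not overlap and the difference was -0.23 ± 0.08 (limma unadjusted p = 0.0190, adjusted p = 0.274). Malic enzyme Me1 differed by 0.19 ± 0.08, or 0.10 without wild-type heart 2 and 0.12 with its probe sets averaged. Pck1, dim at 5.63 in wild type, differed by -0.17 ± 0.08, or -0.11 without wild-type heart 3 and -0.045 with its probe sets averaged.

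Among 19 further glycolysis genes 2 (10.5%) had an unadjusted p under 0.05 by limma, against 14% of all genes. Hk3, the hexokinase of white blood cells, read 7.60, 7.34 and 7.21 in GRK2+/- hearts against 7.06, 7.19 and 7.16, a difference of 0.25 ± 0.10, or 0.14 without GRK2+/- heart 1 and 0.069 with the mean of its probe sets. Of the 8 leukocyte markers 4 were higher at an unadjusted p under 0.05 (background 6.3%), S100a9 by 2.25 ± 0.33, while Cd68, Cd3e and Cd79a lay below 0, at -0.073, -0.12 and -0.075, and their summed level ran from 12.5 to 12.9 in GRK2+/- hearts and from 12.2 to 12.4 in wild-type hearts. Their part in the result was not tested. The gluconeogenic enzyme Fbp1 differed by -0.26 ± 0.09 below the array medians (5.06 against 5.32). Adpgk differed by -0.20 ± 0.09, or -0.12 without wild-type heart 1 and -0.10 with its probe sets averaged.

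Of 12 measured genes of the pentose phosphate path and other side branches, 0 had an unadjusted p under 0.05 with limma (background 14%). Those with the smallest p were Rpia at 0.20 ± 0.10, Tkt at 0.19 ± 0.11 and Gfpt2 at -0.14 ± 0.08. When GRK2+/- heart 1 was left out, Rpia was 0.31 and Tkt 0.32. Leaving out GRK2+/- heart 2 gave 0.089 for Rpia and -0.094 for Gfpt2, and leaving out GRK2+/- heart 3 gave 0.12 for Tkt. With its probe sets averaged Tkt was 0.022, and its most variable probe set turned the direction, at -0.22 without overlap. Of 15 transcription regulators 2 had an unadjusted p under 0.05 with limma (background 14%), both higher (background 6.3%). Ppargc1b, a coactivator of mitochondrial genes, read 10.81, 10.97 and 11.21 in GRK2+/- hearts against 10.27, 10.18 and 10.02, a difference of 0.84 ± 0.11 (limma adjusted p = 0.0632). Hif1a, the hypoxia-inducible subunit that drives glycolytic genes, read 9.71, 10.08 and 10.04 against 9.67, 9.67 and 9.36. It did not overlap and differed by 0.37 ± 0.12, or 0.15 with the mean of its probe sets, and Mlxip differed by 0.16 ± 0.08, or 0.084 without wild-type heart 2.

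The other tissue markers were read over the same hearts. The summed level of 10 cardiomyocyte markers ran from 17.78 to 17.82 in GRK2+/- hearts and from 17.78 to 17.81 in wild-type hearts. Of the 10, 1, Ryr2, was higher at an unadjusted p under 0.05 with limma (0.35 ± 0.08, background 6.3%). The 5 ventricular markers ran from 15.94 to 15.98 against 15.95 to 15.97, with 0 at an unadjusted p under 0.05 by limma (background 14%). Of 8 atrial markers 2 were lower at an unadjusted p under 0.05 (background 7.7%), Nppa at -1.20 ± 0.27 and Bmp10 at -0.19 ± 0.08, and the summed level was 11.2 to 11.6 against 11.8 to 12.2. Nppa is the brightest of them, the next, Stard10, differed by -0.029, and 4 of the 8 lay above 0, Myl7 without overlap at 0.11. Summed smooth muscle markers were 14.00 to 14.20 against 13.86 to 13.99, and epicardial 8.48 to 8.63 against 8.27 to 8.39. Summed endothelial markers overlapped, at 14.10 to 14.19 against 14.01 to 14.12. Higher at limma unadjusted p under 0.05 (background 6.3%) were 2 of 6 smooth muscle, 2 of 6 endothelial and 3 of 5 epicardial markers. They included Myh11 by 0.47 ± 0.09, Kdr by 0.55 ± 0.12 and Wt1 by 0.51 ± 0.12, and 0 were lower at that threshold. Cnn1, at -0.13, and Pecam1, at -0.12 without overlap, lay below 0. Of 6 fibroblast markers 1, Col1a1, was higher at an unadjusted p under 0.05 (0.30 ± 0.11, background 6.3%). The summed fibroblast, adipocyte and red cell markers also overlapped between genotypes. Of 7 skeletal muscle markers 1, Acta1, was lower at an unadjusted p under 0.05 by limma (background 7.7%), at -1.33 ± 0.35. Acta1 read 11.98 in wild-type hearts, while the next brightest marker of this list, Tnni2, read 6.82. Of the 7, 4 lay above 0 and 3 below.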

How the data were processed

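Expression was measured on 6 Affymetrix arrays, 1 a heart. The authors deposited log2 values, and the submitters' processing notes name RMA and limma without their roles; no version is given in the sources used here, nor whether arrays were scaled jointly. Of 45101 probe sets, 64 control probe sets were left out and 45037 tested. Of these, 34945 had 1 symbol in the platform annotation, updated for 34741 through the RefSeq table (GRCm38.p6); the brightest probe set of each gene gave 18193 genes. Genes were tested with limma 3.58.1 (R 4.3.3; lmFit and eBayes, two-sided), with Benjamini-Hochberg adjustment over all genes or all probe sets and a threshold of 0.05. Isoform pairs and control probe sets were compared with an exact two-sided permutation test over hearts, which cannot go below 0.1. Depth is not defined for arrays, and their number limits the precision.

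Values were given heart by heart for the 2 members of each step with the smallest p and for those at an unadjusted p under 0.05 or without overlap. Further pathway lists (pyruvate dehydrogenase control, remaining citrate cycle, remaining glycolysis isoforms, side branches, transcription regulators) gave the 3 genes with the smallest p, and marker lists covered cardiomyocytes, atrium, ventricle, blood cells, endothelium, fibroblasts, smooth muscle, adipocytes, epicardium and skeletal muscle. A summed level is the log2 of the sum of a list's linear values. The members and lists were chosen with earlier results of these data known. Alternatives were scaling, choice of probe set, filter, prior, weights, block and left-out hearts.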

Additional observations from a re-analysis of the deposited data

How the results depend on the processing

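Across the alternatives tried, 0 members passed an adjusted p of 0.05 with limma, where 0 did as reported. At an unadjusted p under 0.05 the count of 0 became 2 when each gene's probe sets were averaged (Pfkp and Tpi1), 3 with the most variable probe set (Pfkp, Pdha1 and Ogdh), 2 with a prior following the mean level (Tpi1 and Pdhb), and 0 to 1 when 1 heart was left out (Pfkfb3 without GRK2+/- heart 2, Pfkp without wild-type heart 3). Among probe sets of members the count was 9 with that prior, in place of 4. The 7 members without overlap became 2 after arrays were centred on their medians. With quantile normalisation they became 6, of which 5 were among the 7. Centring moved the members' median from -0.011 to 0.018 and that of all genes from -0.019 to 0.010. Without 1 heart the count was 8 to 14 and the members' median -0.033 to 0.022. The share of all genes then went from 19.1% to between 25.6% and 35.5%. Signs turned for 5 members under centring, 6 with the mean and 7 with the most variable probe set, and none of them had passed the test. Over all genes, the adjusted count of 0 became 12 with the most variable probe set, 12 with array weights, 42 with the prior, 6 without dim genes and 0 to 56 without 1 heart. The unadjusted count of 2546 (14%) became 1553 without dim genes, a larger share (17.1%) of the 9097 genes kept. Without 1 heart it was 1614 to 3031 (8.87% to 16.7%). Isoform pairs at an exact p of 0.1 were 1 with the most variable probe set and 0 to 1 without 1 heart, in place of 0. Keeping the control probe sets, chosen after seeing the data, gave 8 members without overlap, Gapdh the added one. The causes were not tested.

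Hearts that share a number in the labels did not deviate together (correlations -0.14, -0.020 and 0.0095), so they were not taken as pairs; with the number as a replicate block 1 gene passed in place of 0 and no member did. A paired exact test of 3 pairs cannot go below 0.25. With 3 hearts a group, without a probe set for Grk2 and with many enzymes near the top of the scale, small changes may be missed, and messenger levels do not show enzyme activity.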
